A study of Mus musculus with 14 samples.

Results

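The genes described here are 10 precursors of neuropeptides and granins in the mouse hippocampus, namely Penk, Pdyn, Tac1, Tac2, Adcyap1, Trh, Cartpt, Cort, Vgf and Scg2. They were taken by name from a table of 55450 genes. Each name matched 1 gene, and all 10 were among the 18059 genes that were tested. Poly(A) RNA of the hippocampus was sequenced from 14 female C57BL/6J mice at 10 weeks of age, with 1 library per mouse. The 3 WT mice carried no modified allele. The 3 Δ3102 mice lacked the membrane estrogen receptor GPR30, the product of Gper1, in every cell after CRISPR/Cas9 editing. The 4 AG-KO mice (GPR30 fl/fl;GFAP-Cre) carried a floxed GPR30 allele and a Cre driven by the mouse promoter of the astrocyte gene GFAP, and the 4 NG-KO mice (GPR30 fl/fl;NSE-Cre) carried the same floxed allele and a Cre driven by the neuronal promoter NSE. The comparisons ask which hippocampal transcripts differ when the receptor is lost everywhere, in astrocytes or in neurons. All knockout groups were set against the same 3 WT mice. Floxed mice without Cre and Cre mice without the floxed allele were not analysed here, so in AG-KO and NG-KO mice loss of the receptor cannot be told apart from the presence of Cre or of the floxed allele.

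Neuropeptides are made as long precursor proteins that enter the regulated secretory pathway, are packed into dense-core vesicles and are cut there into active peptides by prohormone convertases, carboxypeptidases and an amidating enzyme. Granins are acidic proteins of the same vesicles, and they are precursors of peptides themselves. In the hippocampus, dynorphin is a peptide of dentate granule cells and their mossy fibers, enkephalin is made in granule cells and in some interneurons, and cortistatin is made in a subset of interneurons. Transcription of several of these precursors is known to follow neuronal activity through CREB, a factor that binds the cAMP response element.

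The libraries held 44527024 to 62669865 counts. Gper1 stood at 0.797, 1.15 and 3.05 FPKM in the WT mice and at 0.0124 to 0.145 FPKM in the Δ3102 mice, so these groups did not overlap (edgeR adjusted p = 0.220, DESeq2 adjusted p = 4.01e-08). In AG-KO mice Gper1 ranged from 0.540 to 1.38 FPKM and in NG-KO mice from 0.9753 to 1.41 FPKM, and both groups overlapped with the WT mice. All 14 listed markers of granule and pyramidal cells passed the filter, and their summed FPKM was 247 to 354. Markers of tissues outside the brain, such as albumin, summed to 318 to 447 FPKM in WT mice, 298 to 457 in Δ3102 mice, 11.1 to 137 in AG-KO mice and 92.2 to 162 in NG-KO mice. The choroid plexus markers summed to 1431 FPKM in Δ3102 replicate 1 and to 5.40 to 241 in the other libraries. The part of either list in the values below was not tested. In RNA of whole tissue, fewer cells of a type and less RNA per cell cannot be told apart, and the p-values below measure only the spread between these mice.

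No precursor gene differed between genotypes at an adjusted p under 0.05 (edgeR quasi-likelihood test, Benjamini-Hochberg over the 18059 genes tested). For Δ3102 against WT mice, 0 of 10 passed, where 0.0111% of all genes did, and 0 of 10 had an unadjusted p under 0.05, where 4.45% of all genes did. For AG-KO against WT mice the counts were 0 of 10 (0.0221% of all genes) and 0 of 10 (14.4%). For NG-KO against WT mice they were 0 of 10 (0.072%) and 1 of 10 (9.16%), the latter being Cort, while AG-KO set against NG-KO mice gave 0 of 10 (0.111%) and 1 of 10 (14.1%), the latter being Trh. A test for any difference among the 4 genotypes also gave 0 of 10 (0.105%) and, without adjustment, 1 of 10 (12.5%), which was Trh at unadjusted p = 0.0173 and adjusted p = 0.322 in edgeR. Without AG-KO replicate 2, edgeR called 82 instead of 4 of all genes in AG-KO against WT mice and 297 instead of 20 in AG-KO against NG-KO mice, and still 0 of 10 precursors. DESeq2 called none of the 9 precursors for which it gave an adjusted p, in any of the 4 pairwise comparisons. Groups whose FPKM did not overlap were found for 0 of 10 precursors in Δ3102 against WT mice, where 11.5% of all genes had them.

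The fold changes of the 10 genes lay on both sides of 0 in each comparison. Their median log2 fold change was 0.01 for Δ3102 against WT mice, 0.17 for AG-KO against WT mice, 0.06 for NG-KO against WT mice, and 0.05 when AG-KO were set against NG-KO mice. Over all tested genes the same medians were -0.0037, -0.0136, -0.0159 and -0.0093. Of the 10 genes, 5 were above 0 in Δ3102 mice and 6 in each of the other comparisons. In 17 of the 30 comparisons with WT mice the 95% interval of the difference lay within a 2-fold change either way. This held in all 3 comparisons for Penk, Pdyn, Tac1, Vgf and Scg2, in 1 of 3 for Tac2 and Cartpt, and in 0 of 3 for Adcyap1, Trh and Cort. The intervals of Scg2 ran from 0.883-fold to 1.28-fold, those of Vgf from 0.834-fold to 1.54-fold and those of Penk from 0.670-fold to 1.497-fold, whereas those of Trh ran from 0.0573-fold to 20.0-fold.

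**Figure D1:**
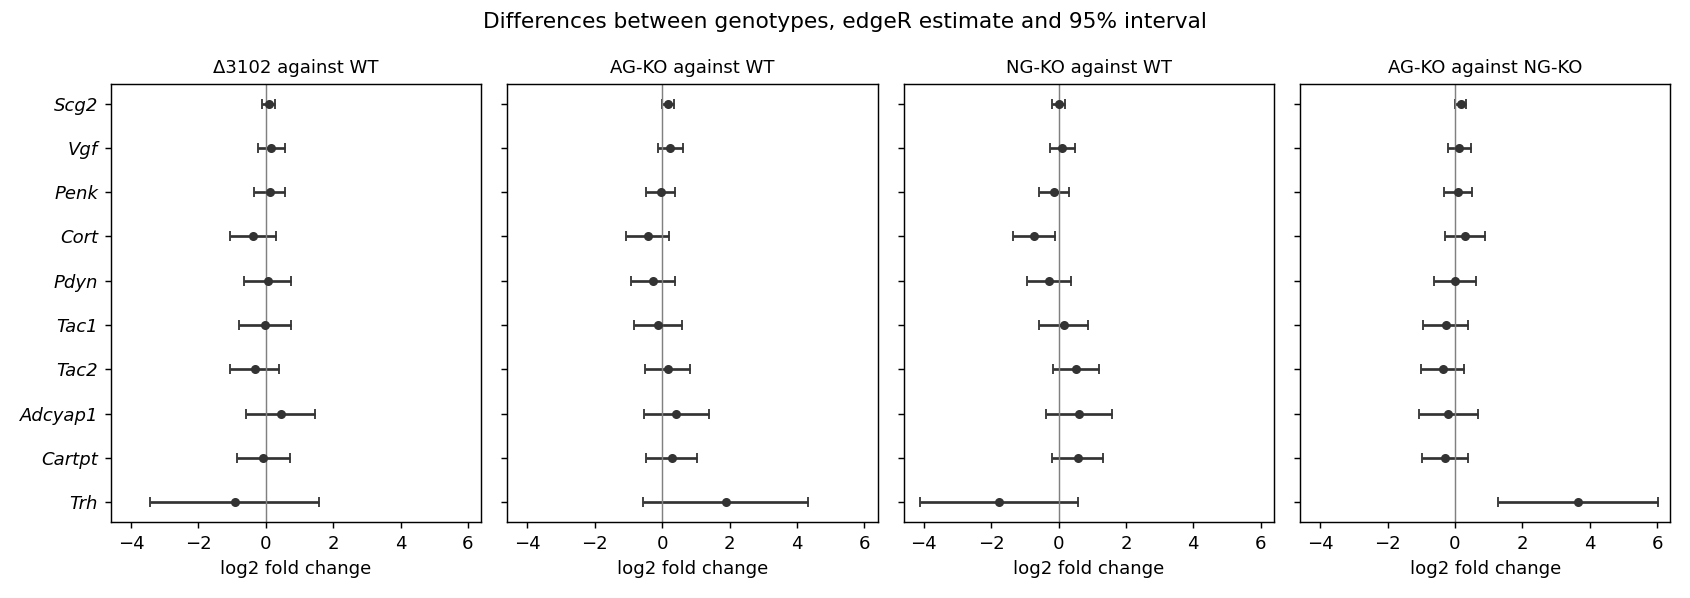
Log2 fold change of the 10 precursor genes in 4 comparisons (x axis, log2 scale), with points for the edgeR estimate and bars for its 95% interval, genes in the order of their median level. The intervals are narrow for Scg2 and wide for Trh, and only Cort in NG-KO against WT mice and Trh in AG-KO against NG-KO mice have an interval that leaves out 0.

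Levels are given in FPKM, fragments scaled to exon length and library size, which allows genes of unequal length to be compared. By the median FPKM over the 14 mice, Scg2 led with 95.8, followed by Vgf with 47.5 and Penk with 18.2. These 3 genes kept this order in 14 of 14 libraries, and their ranges did not overlap with that of the next gene. Then came Cort (6.62), Pdyn (4.64), Tac1 (3.38), Tac2 (3.10), Adcyap1 (2.07) and Cartpt (2.02), each with a range that overlapped with that of its neighbor in this order. Trh was lowest with a median of 0.324, and 6.02% of the tested genes had a lower median. The highest library exceeded the lowest 1.36-fold for Scg2, 6.32-fold for Adcyap1 and 75.2-fold for Trh. Within genotypes, 9 of the 10 genes varied more between mice than the median of the 1001 tested genes of nearest level, and only Scg2 varied less, with a log2 SD of 0.12 against a median of 0.15 over 895 genes.

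**Figure D2:**
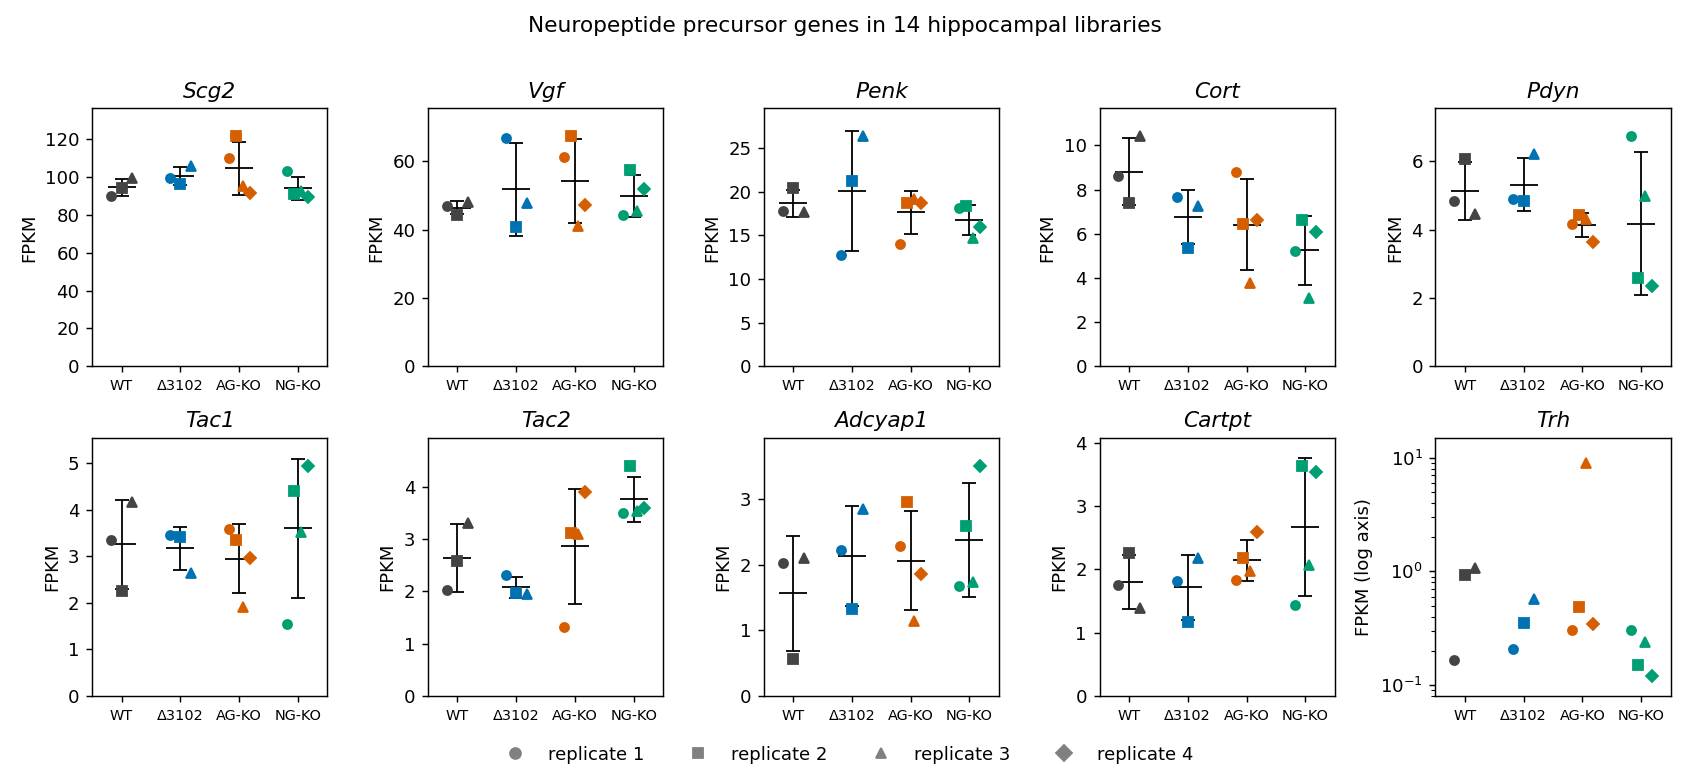
FPKM of each precursor gene (y axis, a log axis for Trh) in every mouse by genotype, with the replicate number as the marker shape and, except for Trh, the mean and SD of each group as a line and bars. The groups overlap in most panels, and AG-KO replicate 3 stands at 9.07 FPKM of Trh while the other 13 mice lie between 0.121 and 1.07.

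Scg2 (chromosome 1 of GRCm38, from 79434669 to 79440120, minus strand) encodes secretogranin II, the precursor of secretoneurin and a structural protein of dense-core vesicles. Its FPKM in WT mice was 90.2, 94.4 and 99.3, that in Δ3102 mice 99.6, 96.4 and 106, that in AG-KO mice 110.2, 122, 95.1 and 91.8, and that in NG-KO mice 103, 91.3, 92.4 and 89.3. AG-KO replicates 1 and 2 were the highest of all mice, whereas AG-KO replicates 3 and 4 lay among the WT values. The log2 fold change of Scg2 was 0.17 in AG-KO against WT mice (95% interval -0.01 to 0.36, adjusted p = 0.376 in edgeR) and 0.17 in AG-KO against NG-KO mice (-0.0025 to 0.34, adjusted p = 0.360). In Δ3102 mice it was 0.09, and in NG-KO mice it was 0.0043.

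Vgf (chromosome 5, from 137026392 to 137033351) encodes a secreted precursor induced by nerve growth factor, which gives several peptides and is known to respond to neuronal activity. Vgf FPKM in WT mice was 46.9, 44.3 and 48.1, that in Δ3102 mice 67.0, 40.9 and 47.7, that in AG-KO mice 61.4, 67.5, 41.0 and 47.2, and that in NG-KO mice 44.4, 57.6, 45.5 and 51.8. The WT mice lay close together (46.4 ± 1.93, SD, n = 3), while Δ3102 replicate 1 and AG-KO replicates 1 and 2 were far above all of them, NG-KO replicates 2 and 4 less so, and Δ3102 replicate 2 and AG-KO replicate 3 below. The group means of the knockouts were 51.9 ± 13.6 (SD, n = 3) in Δ3102, 54.3 ± 12.3 (SD, n = 4) in AG-KO, while NG-KO mice had 49.8 ± 6.13 (SD, n = 4). The fold changes were 0.16, 0.25 and 0.11 on the log2 scale, and each 95% interval included 0.

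The other granins of the list were Chga, Chgb and Scg3, and 0 of 3 passed an adjusted p of 0.05 in any comparison in edgeR or DESeq2, while 0, 1, 1 and 0 had an unadjusted p under 0.05 in Δ3102, AG-KO and NG-KO against WT mice and in AG-KO against NG-KO mice. Chga, which encodes chromogranin A, had a log2 fold change of 0.24 (unadjusted p = 0.0203, adjusted p = 0.264, edgeR) in AG-KO and 0.33 (unadjusted p = 0.00278, adjusted p = 0.284) in NG-KO against WT mice. Its group means were 45.9 FPKM in WT, 53.1 in AG-KO and 57.4 in NG-KO mice, so the level of Chga lay near that of Vgf.

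The promoters of the precursors were searched for the cAMP response element, because both granins and several peptide genes are known CREB targets. RefSeq windows of the 250 bases before a transcription start (GRCm38.p6) were given for 8 of the 10 genes, and Penk and Vgf had no window. The palindrome TGACGTCA occurs in Scg2 and Cartpt, that is in 2 of 8 genes, and in 1.55% of all 32851 windows. A shorter site, TGACG or its reverse complement CGTCA, occurs in 6 of the 8 genes (Scg2, Cartpt, Adcyap1, Trh, Tac1 and Cort) and in 17.8% of all windows. Each palindrome holds both short sites. The counts are of genes, any of whose windows may hold the site, while the shares are of windows, so they are unlike measures. Pdyn and Adcyap1 had more than 1 window, and no test was made. Windows of 30 bases are shown for the 2 genes with the palindrome and for Adcyap1, which has the short site alone, with the site in capitals and the strand of the gene from 5′ to 3′. The Scg2 window is chr1:79440076-79440105 (minus strand), the Cartpt window chr13:99900777-99900806 (minus strand) and the Adcyap1 window chr17:93198914-93198943 (plus strand).
Scg2: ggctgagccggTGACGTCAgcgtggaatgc
Cartpt: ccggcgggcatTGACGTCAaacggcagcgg
Adcyap1: ggactaggatgcTGACGtcttttactgata
The sites begin 68, 112 and 91 bases before a RefSeq start, which for Adcyap1 is the first of those given. In GENCODE vM21, the windows of Scg2 and Cartpt lie within an annotated exon of the gene. The median level of Scg2 was 95.8 FPKM with a highest-to-lowest ratio of 1.36 over the mice, and that of Cartpt 2.02 FPKM with a ratio of 3.13. A match of letters is a description and shows no binding.

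Penk (chromosome 4, from 4133531 to 4138819, minus strand) encodes proenkephalin, the precursor of the enkephalins, which act on delta and mu opioid receptors. Penk overlaps an exon of A830012C17Rik on the opposite strand, listed at 0.0693 FPKM or less. The FPKM of Penk in WT mice was 17.8, 20.5 and 17.7, that in Δ3102 mice 12.8, 21.2 and 26.4, that in AG-KO mice 13.96, 18.7, 19.2 and 18.7, and that in NG-KO mice 18.1, 18.3, 14.7 and 16.01. The Δ3102 group held both the lowest and the highest value of the 14 mice, and no groups were apart. Against WT mice, the log2 fold change of Penk was 0.11 (95% interval -0.36 to 0.58) in Δ3102, -0.05 (-0.49 to 0.39) in AG-KO and -0.14 (-0.58 to 0.30) in NG-KO mice.

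Pdyn (chromosome 2, from 129686565 to 129699833, minus strand) encodes prodynorphin, whose peptides act on the kappa opioid receptor. Its FPKM in WT mice was 4.84, 6.07 and 4.45, that in Δ3102 mice 4.90, 4.82 and 6.20, that in AG-KO mice 4.17, 4.42, 4.30 and 3.64, and that in NG-KO mice 6.73, 2.59, 4.99 and 2.35. All 4 AG-KO mice lay below the lowest WT mouse, by a margin of 4.42 against 4.45 FPKM, and the NG-KO group held the highest mouse and the lowest. The log2 fold change of Pdyn in AG-KO against WT mice was -0.28 (95% interval -0.94 to 0.38, adjusted p = 0.710 in edgeR). An exact two-sided permutation test of the mean FPKM gave p = 0.0286, the smallest that 4 against 3 mice can give, and 0.286 after adjustment over the 40 comparisons of 10 genes. Pdyn was the 1 precursor whose AG-KO and WT groups did not overlap, and 13.3% of all tested genes had such groups, 8.3% with the lower and 5.04% with the higher values in AG-KO mice. Without WT replicate 2 the log2 fold change was -0.14. Against WT mice it was 0.05 (-0.65 to 0.76) in Δ3102 and -0.28 (-0.94 to 0.37) in NG-KO mice.

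The opioid receptors were low by comparison. Oprd1, the delta receptor, ranged from 1.17 to 2.85 FPKM, Oprk1, the kappa receptor, reached 0.331 FPKM, and Oprm1, the mu receptor, stayed at 0.0606 FPKM or less in every mouse. Oprd1 had means of 1.72 FPKM in WT and 2.59 in AG-KO mice, a log2 fold change of 0.63 with an unadjusted p of 0.0182 and an adjusted p of 0.257 in edgeR, and the groups overlapped.

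Tac1 encodes the precursor of substance P and neurokinin A, and Tac2 that of neurokinin B. Tac1 lies on chromosome 6 from 7554879 to 7562977, and Tac2 on chromosome 10 from 127724478 to 127731768. The FPKM of Tac1 in WT mice was 3.35, 2.26 and 4.17, that in Δ3102 mice 3.46, 3.41 and 2.63, that in AG-KO mice 3.59, 3.34, 1.903 and 2.96, and that in NG-KO mice 1.54, 4.39, 3.52 and 4.95. NG-KO mice spanned the whole range of Tac1, from the lowest mouse to the highest, and all groups overlapped. Its log2 fold changes against WT mice were -0.03 in Δ3102, -0.12 in AG-KO and 0.15 in NG-KO mice, with 95% intervals that together ran from -0.84 to 0.88.

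The FPKM of Tac2 in WT mice was 2.02, 2.58 and 3.30, that in Δ3102 mice 2.31, 1.97 and 1.95, that in AG-KO mice 1.31, 3.12, 3.09 and 3.90, and that in NG-KO mice 3.496, 4.40, 3.53 and 3.58. All 4 NG-KO mice lay above the highest WT mouse, and the AG-KO mice spread from below the lowest WT mouse to above the highest. The log2 fold change of Tac2 in NG-KO against WT mice was 0.53 (95% interval -0.15 to 1.21, adjusted p = 0.660 in edgeR), and the exact permutation p was 0.0286, or 0.286 after adjustment over the 40 comparisons. Such groups, with every NG-KO value above every WT value, were found for 4.2% of all tested genes. The libraries held 101 to 377 counts of Tac2.

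Of the tachykinin receptors, Tacr1, the substance P receptor, ranged from 0.151 to 0.648 FPKM, and Tacr3, the neurokinin B receptor, from 0.486 to 2.33 FPKM. Tacr3 had means of 0.860 FPKM in AG-KO and 1.59 in NG-KO mice, a log2 fold change of -0.87 (unadjusted p = 0.0346, adjusted p = 0.307, edgeR), with overlapping groups.

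Adcyap1 (chromosome 17, from 93199017 to 93206537) encodes the precursor of PACAP, a peptide that raises cAMP in its target cells. Its FPKM in WT mice was 2.02, 0.556 and 2.11, that in Δ3102 mice 2.22, 1.33 and 2.85, that in AG-KO mice 2.28, 2.96, 1.15 and 1.87, and that in NG-KO mice 1.67, 2.59, 1.74 and 3.52. WT replicate 2 was the lowest mouse by far with 150 counts of Adcyap1, where the other 13 libraries held 220 to 721, and all groups overlapped. The log2 fold changes against WT mice were 0.45 in Δ3102, 0.43 in AG-KO and 0.62 in NG-KO mice, with adjusted p of at least 0.701 in edgeR. Without WT replicate 2 they were 0.05, 0.02 and 0.21. Its receptor Adcyap1r1 had the highest median of the receptors named here (32.2 FPKM), with WT replicate 3 at 8.15 and Δ3102 replicate 3 at 9.24 FPKM and the other mice at 29.1 to 40.5 FPKM.

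Trh (chromosome 6, from 92242061 to 92244650, minus strand) encodes the precursor of thyrotropin-releasing hormone, a tripeptide best known from the hypothalamus. Trh FPKM in WT mice was 0.167, 0.922 and 1.07, that in Δ3102 mice 0.207, 0.353 and 0.569, that in AG-KO mice 0.304, 0.489, 9.07 and 0.345, and that in NG-KO mice 0.303, 0.150, 0.238 and 0.121. AG-KO replicate 3 held 631 counts of Trh, where the other 13 libraries held 10 to 94. All 4 AG-KO mice lay above all 4 NG-KO mice, by 0.304 against 0.303 FPKM at the nearest, and WT mice overlapped with each group. The log2 fold change of Trh in AG-KO against NG-KO mice was 3.65 (95% interval 1.27 to 6.04, unadjusted p = 0.00566, adjusted p = 0.185 in edgeR), and without AG-KO replicate 3 it was 0.90 with an adjusted p of 0.714. In AG-KO against WT mice it was 1.88 (95% interval -0.55 to 4.32), and without that mouse it was -0.87. The exact permutation p of AG-KO against NG-KO mice was 0.0286, the smallest for 4 against 4 mice, or 0.286 after adjustment over the 40 comparisons. Groups that did not overlap were found for 6.77% of all tested genes, 3.46% with the higher and 3.31% with the lower values in AG-KO mice. In NG-KO against WT mice the log2 fold change was -1.77 (95% interval -4.12 to 0.58), and in limma on log2(FPKM + 1) it was -0.47.

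The 12 markers of the hypothalamus summed to 1.60 FPKM in AG-KO replicate 3 and to 1.01 to 2.82 FPKM in the other mice, and Sim1, Hmx2 and Hmx3 were under 0.1 FPKM in every library. Hcrt, the precursor of orexin, had 8 counts (0.200 FPKM) in AG-KO replicate 3 and none in the other mice. Pmch, the precursor of melanin-concentrating hormone, had 11 counts (0.290 FPKM) there and 4 to 17 counts in AG-KO replicate 4, NG-KO replicate 3 and Δ3102 replicate 1. Pomc, in contrast, was lowest of all mice in AG-KO replicate 3 (0.445 FPKM, 30 counts). The remaining hypothalamic markers held 1 count of Agrp, 0 of Otp, 4 of Avp, 6 of Oxt, 38 of Nkx2-1 and 12 of Lhx1 in that library. The choroid plexus markers summed to 241 FPKM in AG-KO replicate 3, the highest sum outside Δ3102 replicate 1. The part of these cells in its Trh value was not tested. The receptor Trhr ranged from 0.327 to 1.43 FPKM and Trhr2 reached 0.523 FPKM, and Trhde, the ectoenzyme that degrades the hormone, had means of 4.31 FPKM in AG-KO and 2.82 in NG-KO mice (log2 fold change 0.62, unadjusted p = 0.00815, adjusted p = 0.206, edgeR).

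Cartpt encodes the CART prepropeptide and lies on chromosome 13 from 99898489 to 99901091 on the minus strand. Cartpt FPKM in WT mice was 1.75, 2.25 and 1.39, that in Δ3102 mice 1.81, 1.16 and 2.17, that in AG-KO mice 1.82, 2.17, 1.98 and 2.58, and that in NG-KO mice 1.43, 3.64, 2.07 and 3.53. NG-KO replicates 2 and 4 were the highest of all 14 mice, and the other NG-KO mice lay within the WT range. The log2 fold change of Cartpt in NG-KO against WT mice was 0.57 (95% interval -0.18 to 1.32, adjusted p = 0.669 in edgeR), that in AG-KO mice 0.28 and that in Δ3102 mice -0.07.

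Cort (chromosome 4, from 149125034 to 149126763, minus strand) encodes the precursor of cortistatin, a relative of somatostatin that binds all somatostatin receptors. Cort FPKM in WT mice was 8.62, 7.39 and 10.4, that in Δ3102 mice 7.68, 5.35 and 7.25, that in AG-KO mice 8.81, 6.45, 3.79 and 6.61, and that in NG-KO mice 5.24, 6.64, 3.08 and 6.07. All 4 NG-KO mice lay below the lowest WT mouse, whereas Δ3102 replicate 1 and AG-KO replicate 1 lay within the WT range. The mean of Cort was 5.26 ± 1.56 (SD, n = 4) in NG-KO and 8.81 ± 1.53 (SD, n = 3) in WT mice, a log2 fold change of -0.73 (SE 0.29, 95% interval -1.36 to -0.09, unadjusted p = 0.0277) that did not pass adjustment over all genes (adjusted p = 0.481, edgeR). The exact permutation p was 0.0286, or 0.286 after adjustment over the 40 comparisons. Groups with every NG-KO value below every WT value were found for 6.66% of all tested genes, and groups apart in either direction, which Tac2 and Cort both had, for 10.9%. The log2 fold change was -0.38 in Δ3102 and -0.43 in AG-KO mice, and that of AG-KO against NG-KO mice was 0.30 with an interval from -0.30 to 0.89.

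Among the somatostatin receptors, Sstr3 and Sstr4 led with medians of 9.001 and 8.56 FPKM, followed by Sstr2 (5.93) and Sstr1 (4.04), and Sstr5 reached 0.440 FPKM. Sstr3, a receptor of neuronal cilia, had means of 8.77 FPKM in WT and 10.6 in NG-KO mice, a log2 fold change of 0.28 (unadjusted p = 0.0337, adjusted p = 0.499, edgeR). Over all 18 receptors of the precursors' peptides, 10 were tested and 0 passed an adjusted p of 0.05 in any pairwise comparison in edgeR or DESeq2. An unadjusted p under 0.05 in edgeR was found for 0, 1, 1 and 2 of the 10 in the 4 comparisons in the order above. The shares of all tested genes were 4.45%, 14.4%, 9.16% and 14.1%. Of the 10 tested receptors, 8, 9 and 9 had a log2 fold change above 0 in Δ3102, AG-KO and NG-KO against shared WT mice. Their medians were 0.11, 0.40 and 0.37, where those of all tested genes were -0.0037, -0.0136 and -0.0159. Sstr1, with 0.70, 0.39 and 0.85, stood at 0.395 FPKM in WT replicate 1 and at 3.59 and 4.59 FPKM in the other WT mice.

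The enzymes that process the precursors ranged widely in level. Cpe, the carboxypeptidase, ranged from 797 to 939 FPKM, Scg5, the chaperone of the convertase PC2, from 93.3 to 148, and Pcsk2, which encodes PC2, from 29.6 to 37.3. Pam, the amidating enzyme, ranged from 11.4 to 14.9 FPKM and Pcsk1, which encodes the convertase PC1/3, from 2.97 to 5.99. None of the 8 enzymes and chaperones passed an adjusted p of 0.05 in any pairwise comparison in edgeR or DESeq2. Of these 8, 0, 4, 2 and 1 had an unadjusted p under 0.05 in edgeR in the 4 comparisons in the order above. Among all tested genes 4.45%, 14.4%, 9.16% and 14.1% did. In AG-KO against WT mice, Pam had a log2 fold change of 0.20 (adjusted p = 0.312, edgeR) and Cpe one of -0.11 (adjusted p = 0.343). Scg5 had a log2 fold change of 0.31 in NG-KO against WT mice (unadjusted p = 0.0122, adjusted p = 0.405, edgeR), with every NG-KO mouse above every WT mouse. Such groups, with the higher values in NG-KO mice, were found for 4.2% of all tested genes. Cpe had a log2 fold change of -0.12 in AG-KO against NG-KO mice.

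**Figure D3:**
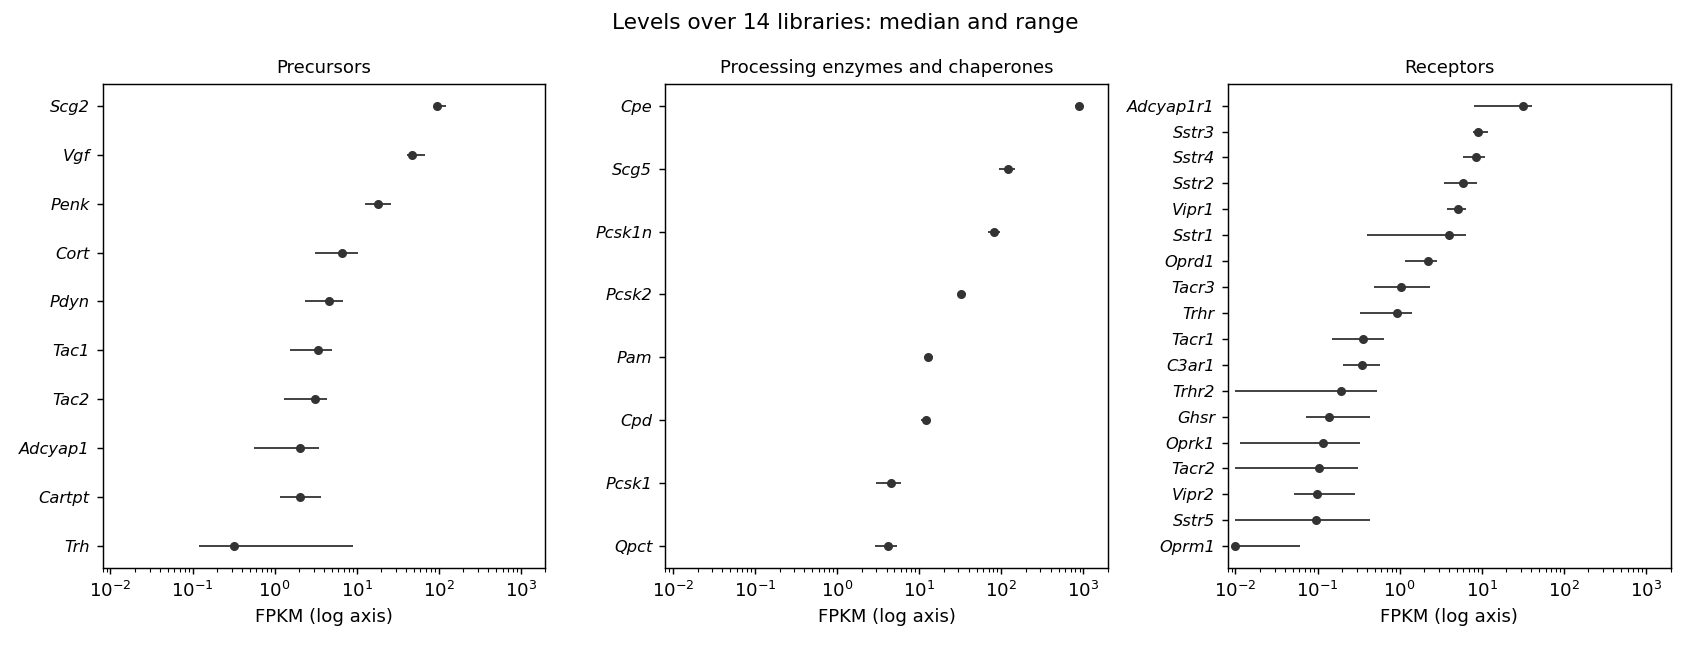
Median FPKM over the 14 mice (points) with the range (lines) on a log axis for the 10 precursors, 8 processing enzymes and chaperones and 18 receptors, values under 0.01 drawn at 0.01. Cpe lies above all precursors, and of the receptors Adcyap1r1 lies highest while Oprm1 lies at the lower end.

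Of the 8 peptidases that degrade neuropeptides, 6 were tested and 0 passed an adjusted p of 0.05 in edgeR, while DESeq2 called Anpep in NG-KO against WT mice. Without adjustment, 1, 2, 1 and 2 of the 6 had a p under 0.05 in edgeR in the 4 comparisons. The same held for 4.45%, 14.4%, 9.16% and 14.1% of all tested genes. Anpep, the aminopeptidase N that removes the first residue of enkephalins, had means of 2.00 FPKM in WT, 1.38 in Δ3102, 1.51 in AG-KO and 1.16 in NG-KO mice. Its log2 fold changes against WT mice were -0.53, -0.38 and -0.77, with unadjusted p of 0.0122, 0.0431 and 0.000491 and adjusted p of 0.9997, 0.329 and 0.189 in edgeR, and DESeq2 gave 0.00647 for NG-KO mice. Ece1, an endothelin-converting enzyme, had a log2 fold change of 0.31 in AG-KO mice (adjusted p = 0.311).

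Of 19 other neuropeptide precursors, 14 were tested and 0 passed an adjusted p of 0.05 in edgeR, while DESeq2 called Npy in AG-KO against WT and against NG-KO mice. An unadjusted p under 0.05 in edgeR was found for 0, 1, 0 and 3 of the 14 in the 4 comparisons. For all tested genes the shares were 4.45%, 14.4%, 9.16% and 14.1%. Npy, the precursor of neuropeptide Y and a marker of interneurons, had means of 74.9 FPKM in WT and 94.8 in AG-KO mice, with every AG-KO mouse above every WT and every NG-KO mouse (log2 fold change 0.37, unadjusted p = 0.000916, edgeR adjusted p = 0.130, DESeq2 adjusted p = 0.00937 against WT mice). Every AG-KO value was above every WT value for 5.04% of all tested genes, and above every NG-KO value for 3.46%. Grp, the precursor of gastrin-releasing peptide, had means of 12.2 FPKM in AG-KO and 23.0 in NG-KO mice (log2 fold change -0.90, adjusted p = 0.257), and Pnoc, which encodes prepronociceptin, 5.63 and 4.15 FPKM (0.45, adjusted p = 0.342). The median log2 fold changes of the 14 genes were 0.08, 0.08, 0.06 and -0.10 in the 4 comparisons.

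Activity-induced genes were listed because Vgf, Scg2, Pdyn, Penk and Adcyap1 are known to follow neuronal activity. All 15 were tested, and 0 passed an adjusted p of 0.05 in edgeR. DESeq2 called 1 of them, Npas4 (adjusted p = 9.63e-05), in AG-KO against WT mice and 3, Arc, Egr1 and Nptx2, in AG-KO against NG-KO mice. In AG-KO against WT mice, 14 of 15 had a log2 fold change above 0, 6 had an unadjusted p under 0.05 (14.4% of all tested genes did), and the median was 0.64. In AG-KO against NG-KO mice 15 of 15 were above 0, 8 had an unadjusted p under 0.05 (14.1% of all tested genes did), and the median was 0.71. In Δ3102 mice 5 of 15 and in NG-KO mice 8 of 15 were above 0, with medians of -0.07 and 0.08. Npas4, a factor induced by calcium entry, had means of 1.82 FPKM in WT, 4.76 in AG-KO and 3.29 in NG-KO mice (log2 fold changes 1.41 and 0.86, adjusted p = 0.102 and 0.338, edgeR). Arc, a synaptic protein made on activity, had means of 54.3 FPKM in AG-KO and 25.8 in NG-KO mice (log2 fold change 1.08, adjusted p = 0.210). The summed FPKM of the 15 genes was 260.3 and 267 in AG-KO replicates 1 and 2, 167 in replicate 3, 102 in replicate 4 and 108 to 140.1 in the other 10 mice. In AG-KO replicates 1 and 2, Scg2 was the highest of all mice (110.2 and 122 FPKM) and Vgf stood at 61.4 and 67.5. In Δ3102 replicate 1, whose activity-induced genes summed to 137, Vgf stood at 67.0. In AG-KO replicates 1 and 2 Pdyn (4.17 and 4.42) was below every WT mouse, and Penk (13.96 and 18.7) was second lowest of all mice in replicate 1. Adcyap1 was 2.28 in AG-KO replicate 1, above every WT mouse and within the range of the Δ3102 and NG-KO mice. It was 2.96 in AG-KO replicate 2, above every WT and Δ3102 mouse and below NG-KO replicate 4 (3.52). The part of neuronal activity in the precursor values was not tested.

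Pdyn varied with some of the granule and pyramidal cell markers across the 14 mice and not with others. NG-KO replicates 2 and 4, which had the lowest Pdyn, also had the lowest Dsp (1.58 and 0.790 FPKM, against 2.61 to 6.61 in the other mice), Lct (1.34 and 0.980 against 3.58 to 10.8) and Prox1 (4.80 and 4.13 against 5.32 to 11.5). Pearson's r of log2(FPKM + 0.1) between Pdyn and Dsp was 0.919 (Spearman's rho 0.807), that between Pdyn and Prox1 0.867 (rho 0.776) and that between Pdyn and Lct 0.863 (rho 0.644). Over the 140 pairs of 10 precursors and 14 granule and pyramidal cell markers, 6 had an adjusted p under 0.05 for r in permutation tests. These were Pdyn with Dsp (adjusted p = 0.0042), Prox1 (0.0049), Lct (0.0266), Tdo2 (r 0.753, rho 0.719, adjusted p = 0.0364) and Neurod6 (r 0.764, rho 0.538, adjusted p = 0.0364), and Cartpt with Tdo2 (r -0.750, rho -0.684, adjusted p = 0.0364). None of the 140 rho passed adjustment, and the lowest adjusted p for rho was 0.114. Without the 2 mice most extreme in Pdyn, its r was 0.755 for Dsp, 0.692 for Prox1, 0.496 for Lct, 0.572 for Tdo2 and 0.367 for Neurod6, and without the 2 mice most extreme in Cartpt its r with Tdo2 was -0.562. Other markers of granule cells had a lower r with Pdyn over the 14 mice, with 0.629 for C1ql2, 0.256 for C1ql3 and 0.123 for Calb1. For C1ql2 rho was 0.758, with adjusted p = 0.153 for r and 0.122 for rho in permutation tests. Without the 2 mice most extreme in Pdyn this order did not hold. The r was then 0.670 for C1ql2, 0.666 for C1ql3 and 0.636 for Calb1, above those of Lct, Tdo2 and Neurod6. In these 3 genes AG-KO replicate 4, not NG-KO replicates 2 and 4, was lowest or second lowest. With each genotype centered on its own mean, r of Pdyn was 0.924 with Dsp and 0.866 with Prox1. The share of granule cells in each dissected piece was not measured, and its part in the Pdyn values was not tested.

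**Figure D4:**
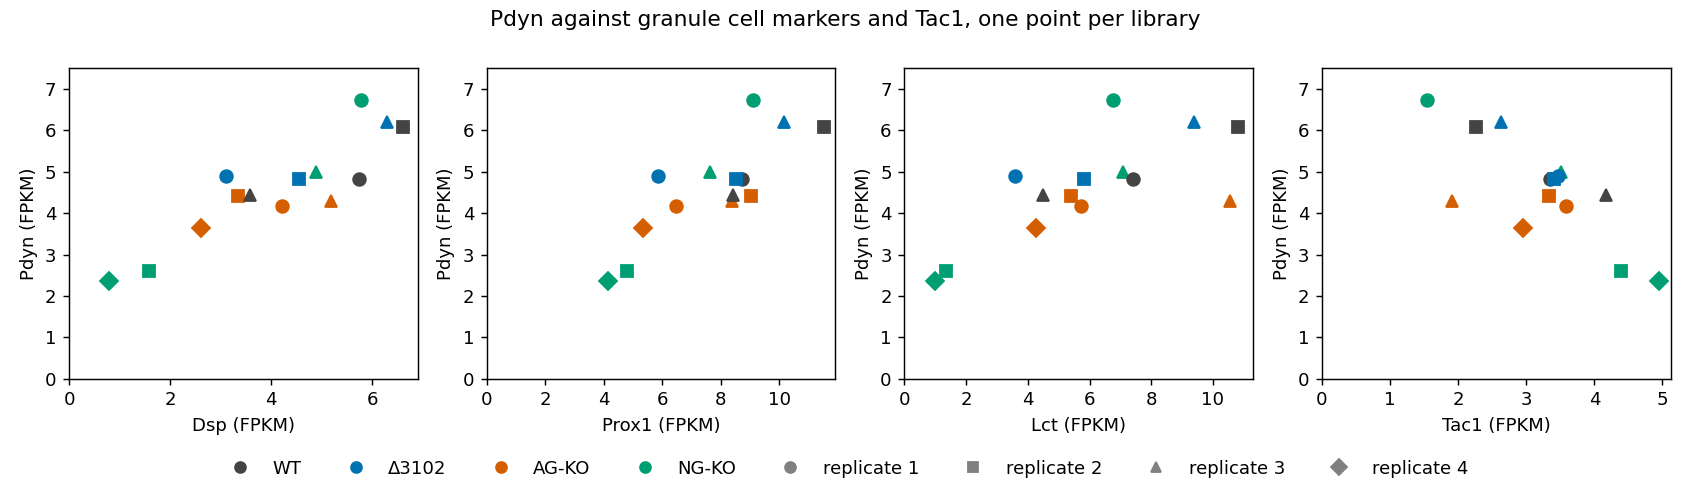
FPKM of Pdyn (y axis) against the granule cell markers Dsp, Prox1 and Lct and against Tac1 (x axes, FPKM), 1 point per mouse, colored by genotype and shaped by replicate. NG-KO replicates 2 and 4 lie at the lower left with the 3 markers and at the lower right with Tac1. The 3 markers had the highest r with Pdyn of the 14 listed. Others are not drawn, among them C1ql3 (r 0.256) and Calb1 (r 0.123).

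The lowest r of Pdyn with other precursors were those with Tac1 and Cartpt. NG-KO replicates 2 and 4 had Tac1 at 4.39 and 4.95 FPKM, the highest of all mice, and NG-KO replicate 1, with the highest Pdyn, had the lowest Tac1. The r between Pdyn and Tac1 was -0.700 (rho -0.569, permutation adjusted p = 0.151 and 0.321 over the 45 pairs of precursors), and within genotypes it was -0.809. The r between Pdyn and Cartpt was -0.696 (rho -0.429, adjusted p = 0.151 and 0.408), and it was -0.190 without the 2 mice most extreme in Pdyn. No pair of precursors passed adjustment by r, and 24 of 45 r were above 0. Adcyap1 and Vgf were the 1 pair that passed by rank (rho 0.859, adjusted p = 0.00585), with r at 0.596 (adjusted p = 0.331), at 0.604 without the 2 mice most extreme in Adcyap1 and at 0.598 within genotypes.

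For the 6 precursors that ranged more than 3-fold, Pdyn being below that limit, the tested genes most like each across the 14 mice were listed by r of log2(FPKM + 0.1), and no test applies since they were chosen for it. Adcyap1 was closest to Rftn1, a protein of lipid rafts (r 0.940, rho 0.943), which was likewise lowest in WT replicate 2 (1.52 FPKM) and was highest in AG-KO replicate 2 (5.02 FPKM), followed by Cgref1 (r 0.890) and Gnl3l (r 0.881). Tac1 was closest to Cog7 (r 0.898), Ciapin1 (r 0.897) and Lmna (r 0.895), Tac2 to Xab2 (r 0.851), Bicd1 (r 0.845) and Rtn4rl2 (r 0.839), Cartpt to Suv39h1 (r 0.870), Gaa (r 0.835) and Necab2 (r 0.834), and Cort to Castor1 (r 0.878), Prkch (r 0.868) and Gins4 (r 0.840). Trh was closest to the protocadherin Pcdhga6 (r 0.886, rho 0.459), then to Dock1 (r 0.824) and Tab2 (r 0.822). Pcdhga6 stood at 48.3 FPKM in AG-KO replicate 3 and at 1.71 to 3.44 FPKM in the other mice, and r was 0.223 without the 2 mice most extreme in Trh.

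Markers of the other cells and regions that the dissection could hold did not pass an adjusted p of 0.05 in any comparison in edgeR, while DESeq2 called Gad1, Gad2, Npy, Tdo2, Drd2 and Aqp1 in AG-KO against WT mice, Aqp1 in NG-KO against WT mice and Gad2 and Npy in AG-KO against NG-KO mice. The number of tested markers with an unadjusted p under 0.05 in the 4 comparisons was 1, 4, 1 and 2 of 10 for GABAergic neurons, 0, 4, 1 and 3 of 14 for granule and pyramidal cells, 0, 1, 0 and 2 of 10 for striatum, 0, 0, 0 and 2 of 8 for thalamus and habenula, 0, 0, 1 and 1 of 8 for neocortex, 1, 1, 1 and 0 of 5 for choroid plexus and 0, 1, 0 and 0 of 6 for tissues outside the brain. Over all tested genes it was 4.45%, 14.4%, 9.16% and 14.1%. Against WT mice, 7, 9 and 9 of 10 GABAergic markers had a log2 fold change above 0 in Δ3102, AG-KO and NG-KO mice. Their medians were 0.05, 0.22 and 0.12 against these same WT mice, where those of all tested genes were -0.0037, -0.0136 and -0.0159. In AG-KO and NG-KO mice the exception was Pvalb, a marker of fast-spiking interneurons, with -0.49 and -0.55 (adjusted p = 0.519 and 0.664, edgeR). Pvalb is named here after its values were seen. Its FPKM was 94.5, 92.1 and 33.1 in WT, 33.7 to 75.9 in AG-KO and 35.3 to 59.0 in NG-KO mice, with overlapping groups. Gad1 had 0.21 in Δ3102 and 0.26 in NG-KO mice (adjusted p = 0.9997 and 0.405), Dlx2 had 0.85 in AG-KO mice (0.293), and Gad2 had 0.39 in AG-KO against NG-KO mice (0.143). Of the 14 granule and pyramidal cell markers, 4 were above 0 in AG-KO and 5 in NG-KO against WT mice, with Tdo2 at -1.21 and -0.97 (adjusted p = 0.163 and 0.374) and Mpped1 at 1.45 in AG-KO mice (0.320), and Wfs1 at 0.34 and Fibcd1 at -0.47 in AG-KO against NG-KO mice. The summed FPKM of 10 striatal markers was 41.6 to 52.5 over all mice, that of 12 thalamic and habenular markers, Tac2 among them, 19.1 to 27.3, and that of 10 neocortical markers 69.6 to 93.2. Drd2 had a log2 fold change of 0.98 in AG-KO against WT mice (adjusted p = 0.159), and Adora2a had 0.85, Gng8 2.22 and Scnn1a 0.56 in AG-KO against NG-KO mice, with Scnn1a at -0.70 in NG-KO against WT mice. Of the choroid plexus markers, Kl had 0.83 in Δ3102 mice and Aqp1 -1.58 and -1.72 in AG-KO and NG-KO mice (adjusted p = 0.138 and 0.213), and of the markers of tissues outside the brain, Apoa1 had -3.45 in AG-KO mice (0.343). The part of these cells in the precursor values was not tested.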

How the data were processed

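The deposited FPKM values were calculated by the authors with StringTie after mapping to GRCm38 with HISAT2, and genes without signal hold 0.0001. The submitters' notes list cutadapt 1.9, HISAT2 2.0.4, StringTie 1.3.4d, UMI-tools, DESeq2 and edgeR, the last 3 without versions. The deposited counts are whole numbers per gene, not normalized. The program that counted them and its strand setting are not given in the sources used here, so reads of overlapping genes could be shared.

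Groups followed the labels. A single model of the 14 count columns, giving each genotype its own mean, was used in edgeR 4.0.16 (TMM, quasi-likelihood test, R 4.3.3). A gene was tested if 3 or more libraries had 0.5 FPKM or more of it, which kept 99.6% to 99.7% of the counts of each library, and 0 of 91 pairs of libraries were identical. The p-values were two-sided and adjusted by the Benjamini-Hochberg method across all 18059 genes that were tested, and 0.05 was the threshold. Single genes were also compared by exact permutation tests of mean FPKM, and correlations by 100000 permutations of log2(FPKM + 0.1), two-sided. The procedure was tested on simulated data. DESeq2 1.42.0 and limma 3.58.1 served as alternatives, and DESeq2 gave Trh no adjusted p. Tables and plots were made in Python 3.11.15 with SciPy 1.17.1, NumPy 2.4.6, pandas 2.3.3 and matplotlib 3.10.9.

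The precursor genes, the other gene lists and the rules were chosen with earlier results of these data known. All 10 precursors are named. Of each other list, known partners of a precursor are named by level, and in each comparison the tested gene with the largest log2 fold change in either direction among those with an unadjusted p under 0.05. Genes named because DESeq2 called them were chosen after their values were seen. The hypothalamic markers are named outside this rule. Dlx6os1 matched more than 1 gene of the table and was left out. Coordinates are those of the deposited table, and those of Pdyn and Tac1 differ from GENCODE vM21. Deviations of same-numbered mice of different genotypes were correlated, and the values are given with the dependence on the processing. Protein sequences were not used here.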

Additional observations from a re-analysis of the deposited data

Results flagged for a closer look

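In each knockout group of 4 mice, the gap between the extreme mouse and its neighbor was divided by the range of the group and compared with Dixon's critical value at the 95% level. Of 20 such groups, 3 exceeded it, and chance gives about 1 in 20. Penk was lowest in AG-KO replicate 1 at 13.96 FPKM, while the other AG-KO mice lay between 18.7 and 19.2 (gap over range 0.903). Tac2 was highest in NG-KO replicate 2 at 4.40 FPKM, above 3.496 to 3.58 in the others (0.903). Trh was highest in AG-KO replicate 3 at 9.07 FPKM, above 0.304 to 0.489 in the others (0.979).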

How the results depend on the processing

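None of the 10 precursors passed an adjusted p of 0.05 in a pairwise comparison under any of the 22 alternatives. Over 876 values of single genes under these alternatives the lowest adjusted p was 0.0865, for Trh in AG-KO against NG-KO mice without AG-KO replicate 2. Trh was not tested under the stricter filter (FPKM of at least 1), and DESeq2 gave it no adjusted p, so both settings cover 9 genes. The direction of the difference turned in 26 values, of 13 of the 40 comparisons of single genes, and the cause was not tested. For Pdyn, AG-KO against NG-KO, the log2 fold change was -0.00414 without a filter on FPKM. That of Scg2, NG-KO against WT, was -0.01004 in limma with a pseudocount of 1 and -0.0101 with 0.1. Leaving out 1 mouse at a time gave log2 fold changes from -0.12 to 0.35 for Penk in Δ3102 and from -0.10 to 0.0619 in AG-KO against WT mice, from -0.0676 to 0.20 for Pdyn in Δ3102 against WT and from -0.20 to 0.34 in AG-KO against NG-KO mice, from -0.24 to 0.17, from -0.32 to 0.0841 and from -0.0509 to 0.40 for Tac1 in Δ3102, AG-KO and NG-KO against WT mice, from -0.0195 to 0.41 for Tac2 in AG-KO against WT mice, from -0.40 to 0.0509 for Adcyap1 in AG-KO against NG-KO mice, from -0.87 to 2.28 for Trh in AG-KO against WT mice, from -0.27 to 0.14 for Cartpt and from -0.0648 to 0.30 for Vgf in Δ3102 against WT mice, and from -0.0477 to 0.0334 for Scg2 in NG-KO against WT mice. Cort in NG-KO against WT mice kept its sign in all alternatives, from -0.86 to -0.54 with adjusted p from 0.365 to 0.762. Replicate numbers are shared between genotypes in the labels. The deviations of same-numbered mice from their genotype means had correlations from -0.284 to 0.308. Mice of unlike number were not compared, so these values cannot show whether the numbers pair mice. The numbers were not taken as pairs, and with the replicate number as a block 0 of 10 precursors passed in any pairwise comparison. Over all genes, edgeR called 2, 4, 13 and 20 genes in the 4 comparisons and DESeq2 33, 401, 165 and 455, and with the replicate block edgeR called 1, 1, 5 and 9. Leaving out 1 mouse gave 2 to 10, 1 to 82, 8 to 19 and 13 to 297 calls over all genes. Calls were most in Δ3102 and NG-KO against WT mice without WT replicate 1 (10 and 19) and in AG-KO against WT and NG-KO mice without AG-KO replicate 2 (82 and 297), and fewest without AG-KO replicate 4 (1), Δ3102 replicate 1 (8 and 13) and AG-KO replicate 3 (13). For Trh, NG-KO against WT, the log2 fold change was -0.47 and -1.22 in limma with pseudocounts of 1 and 0.1 and -0.99 with the replicate block. Trh had 10 to 94 counts in 13 of 14 libraries, and without AG-KO replicate 3 its log2 fold change in AG-KO against NG-KO mice was 0.90 instead of 3.65.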
